A study of Mus musculus with 18 samples.

Results

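Gdf9 and Bmp15 encode the oocyte growth factors GDF9 and BMP15, and both were chosen by name, as 2 of the 30172 genes with a value in every library. They were followed across 18 whole-ovary RNA-seq libraries of wild-type C57BL/6J female F1 mice, in 6 groups of 3 libraries. The F1-HHcy pups were born to dams fed a diet with 3% methionine by weight, which raises homocysteine, from before mating (4 weeks in the labels, a different length in the study's methods) until the end of lactation, and the F1-Control pups were born to dams on normal chow. All sires received normal chow and no pup was treated directly. Ovaries were taken at postnatal day 3, 7 or 21 (Pd3, Pd7 and Pd21), and the Pd3 and Pd7 libraries carry the batch label 1 and the Pd21 libraries the label 2, so that age and batch cannot be told apart wherever Pd21 is set against a younger day. How many pups or litters stand behind a library was not given in the sources used here, so the p-values below measure only the spread between these libraries.

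GDF9 and BMP15 are secreted ligands of the TGF-beta family that the oocyte makes once it leaves the resting state of the primordial follicle. GDF9 signals in the surrounding granulosa cells through the type II receptor BMPR2 and the type I receptor TGFBR1 to SMAD2 and SMAD3, and BMP15 through BMPR2 and BMPR1B to SMAD1 and SMAD5. Both ligands can also pair with each other in a single dimer. Mouse follicles that lack GDF9 stop at the primary stage, while the loss of BMP15 in the mouse is milder, and later in life both ligands act on the cumulus cells around the egg.

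Gdf9 lies on chromosome 11 (GRCm38, chr11:53430774-53437904, plus strand, RefSeq span), and Bmp15 on chromosome X (chrX:6314054-6320724, minus strand). In the GENCODE annotation the protein-coding transcript of each gene has 2 exons, and most of the coding sequence sits in exon 2 (926 of 1323 coding bases in Gdf9 and 854 of 1176 in Bmp15). The RefSeq span of Gdf9 overlaps by 58 bases with that of Uqcrq, a subunit gene of mitochondrial complex III on the opposite strand, whereas the nearest annotated genes of Bmp15 are 72940 and 79224 bases away. Uqcrq lay between 49.3 and 119 FPKM in the 18 libraries and is given below beside the Gdf9 results, since the strand setting of the counting is not given in the sources used here.

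The bases just before the start of Bmp15 are shown because several of the oocyte transcription factors measured below are known to bind short DNA elements of the kind found there. The stretch covers the 250 bases before the RefSeq start (GRCm38.p6, chrX:6320725-6320974, minus strand, 5′ to 3′). Capitals mark, from left to right, the letters TAATTA (a NOBOX element), an E-box (CANNTG, the kind of site that FIGLA and SOHLH1 bind) and TGATTG (an LHX8 element).
Bmp15: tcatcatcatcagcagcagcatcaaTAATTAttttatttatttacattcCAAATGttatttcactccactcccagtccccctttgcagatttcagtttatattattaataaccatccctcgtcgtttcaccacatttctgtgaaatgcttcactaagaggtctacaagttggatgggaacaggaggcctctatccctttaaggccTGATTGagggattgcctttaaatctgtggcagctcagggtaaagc
Both strands were searched, and no other match of these elements or of the further NOBOX elements TAATTG and TAGTTG was found in the window. Of the windows of the same length before 32851 RefSeq starts, 66.2% hold an E-box, 4.84% hold TAATTA and 12.7% hold TGATTG. A match is a description of letters and not of a bound site.

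The values are FPKM, that is fragments scaled by gene length and by the total of the library, so levels of different genes can be compared. Each library held between 33630304 and 39398922 fragments on genes. At this depth counting error was small even for the lowest value, since the 79 Bmp15 fragments of F1-Control Pd3 replicate 2 gave 0.707 FPKM with an exact 95% Poisson interval from 0.560 to 0.882, which covers counting error only. Defining oocyte genes such as Zp3 and Ddx4 and granulosa genes such as Foxl2 were found in all 18 libraries, as whole ovary requires. Genes of other sources moved with the groups. The 5 summed red-cell markers were at 3887 to 11108 FPKM in F1-Control Pd3 against 778 to 1107 FPKM in F1-HHcy Pd3, and the 6 summed markers of ciliated and oviduct epithelium were at 86.3 to 462 FPKM in F1-Control Pd21 against 4.79 to 9.86 FPKM in F1-HHcy Pd21, with no marker of either list at 0 in all libraries of a group. For both ligands F1-HHcy Pd3 replicate 3 was the library nearest to the controls of its day, so some differences of the pair are also given without it. The others that use this library are covered only by the ranges given near the end, with single libraries left out. The correlations were not repeated without it.

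Gdf9 was the more abundant of the pair in every library, and both genes were lowest in F1-Control Pd3. In F1-Control Pd3 the 3 libraries held 33.5, 35.0 and 52.3 FPKM of Gdf9, and in F1-HHcy Pd3 they held 215, 168 and 83.9 FPKM. At Pd7 Gdf9 was at 111, 195 and 294 FPKM in F1-Control and at 198, 168 and 312 FPKM in F1-HHcy. At Pd21 it was at 484, 395 and 303 FPKM in F1-Control and at 479, 386 and 549.9 FPKM in F1-HHcy. The diets were thus apart at Pd3 only, and their ranges overlapped at Pd7 and Pd21. By group mean, Gdf9 stood above 94.4% of the 30172 genes in F1-Control Pd3 and above 99.6% in both Pd21 groups.

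Bmp15 covered a far wider range than Gdf9. It was at 1.17, 0.707 and 1.80 FPKM in F1-Control Pd3 and at 34.0, 20.1 and 3.70 FPKM in F1-HHcy Pd3. At Pd7 it was at 14.3, 14.8 and 26.3 FPKM in F1-Control and at 64.1, 56.1 and 77.3 FPKM in F1-HHcy. At Pd21 the F1-Control libraries held 109, 97.4 and 42.8 FPKM and the F1-HHcy libraries 119, 103 and 142 FPKM. Here the diets were apart at both Pd3 and Pd7, and at Pd21 the lowest F1-HHcy library lay below the highest F1-Control library.

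**Figure D1:**
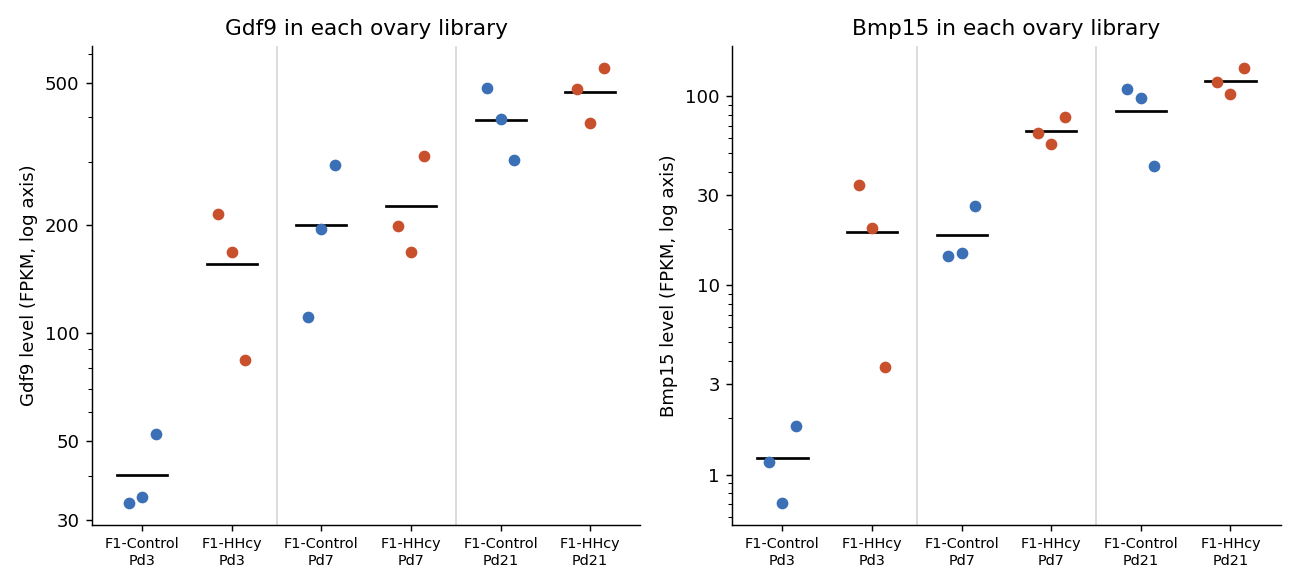
Gdf9 (left) and Bmp15 (right) in each of the 18 libraries, in FPKM on log axes. Points are libraries, horizontal bars are the means of 3 libraries, blue is F1-Control and red is F1-HHcy, and the F1-HHcy points lie above all F1-Control points at Pd3 for both genes and at Pd7 for Bmp15 alone.

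Ordered by mean, Gdf9 rose from F1-Control Pd3 (40.3 ± 10.4 FPKM, SD, n = 3) through F1-HHcy Pd3 (156 ± 66.6), F1-Control Pd7 (199.96 ± 91.6), F1-HHcy Pd7 (226 ± 75.7) and F1-Control Pd21 (394 ± 90.2) to F1-HHcy Pd21 (472 ± 82.1). Only the lowest step, from F1-Control Pd3 to F1-HHcy Pd3, was free of overlap between neighbouring groups. For Bmp15 the order differed, since F1-Control Pd7 (18.5 ± 6.80 FPKM) came before F1-HHcy Pd3 (19.3 ± 15.2). These neighbours overlapped, and so did F1-HHcy Pd7 (65.8 ± 10.8), F1-Control Pd21 (83.2 ± 35.5) and F1-HHcy Pd21 (121 ± 19.6) with the next in order, whereas F1-Control Pd3 (1.22 ± 0.549) and the step from F1-HHcy Pd3 to F1-HHcy Pd7 stood apart. The order is a description, and steps between Pd21 and the other days also cross the batches.

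Whether the maternal diet altered the ligands was asked at each day. At Pd3 both genes were higher in F1-HHcy, by 3.87-fold for Gdf9 and 15.7-fold for Bmp15 on the means. On the log2(FPKM + 1) scale, which understates changes of low genes, the difference was 1.85 (SE 0.34) for Gdf9 and 2.79 (SE 0.66) for Bmp15. By limma on this scale both passed the limits used in the study's volcano plots, an unadjusted p under 0.05 with a difference above 0.58 in size, which 664 of 13277 tested genes (5.0%) passed in the same direction and 4.74% in the other. The Benjamini-Hochberg adjusted p of limma was 0.0388 for Gdf9 and 0.0644 for Bmp15, and 3.07% of the genes had an adjusted p under 0.05. All 3 F1-HHcy libraries lay above all 3 F1-Control libraries for both genes, as they did for 11.8% of the tested genes. Since only 2 of 3 F1-Control Pd3 libraries reached the 1 FPKM asked of 3 libraries, Bmp15 entered this test through F1-HHcy, and with no filter its difference was also 2.79 (adjusted p = 0.187, limma).

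By size of the difference Bmp15 was number 21 and Gdf9 number 70 from the top among the 13277 genes. The median over all tested genes was -0.03. Without F1-HHcy Pd3 replicate 3 the differences were 2.24 for Gdf9 and 3.64 for Bmp15. With the hemoglobin and mitochondrially encoded genes taken out and the rest rescaled, they were 1.80 and 2.81, nearly as with those genes. In whole ovary, fewer cells of a type and less RNA per cell cannot be told apart. Uqcrq was at 73.6 ± 6.40 FPKM in F1-HHcy Pd3 and 79.8 ± 6.37 in F1-Control Pd3 and did not pass (adjusted p = 0.578, limma).

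At Pd7 only Bmp15 passed. Bmp15 was higher in F1-HHcy by 3.56-fold on the means, a difference of 1.82 on the log2(FPKM + 1) scale (SE 0.23, adjusted p = 0.00300, limma), and passed the criterion with 9.06% of 13299 tested genes, while 7.35% passed downward. Its groups did not overlap, as in 19.5% of the genes in this direction, and 11.9% of the genes had an adjusted p under 0.05. It ranked 47 from the top by size and had the 60th smallest p. Gdf9 differed by 0.24 (SE 0.34, 95% confidence interval -0.53 to 1.00, adjusted p = 0.665) and did not pass, and its sign turned to -0.13 without F1-Control Pd7 replicate 1 and to -0.02 without F1-HHcy Pd7 replicate 3. Uqcrq, which overlaps Gdf9, fell by 0.71 on this scale (adjusted p = 0.0405), from 90.8 ± 24.8 FPKM in F1-Control Pd7 to 53.9 ± 4.06 in F1-HHcy Pd7.

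At Pd21 neither gene passed. Bmp15 differed by 0.63 (SE 0.33, 95% confidence interval -0.12 to 1.39, adjusted p = 0.941) and Gdf9 by 0.27 (SE 0.23, -0.26 to 0.80, adjusted p = 1.00). Few genes passed upward on this day, 11 of 13350 or 0.0824% against 5.06% downward, and by size alone Bmp15 was number 38 from the top. The Bmp15 value turned on single libraries, since it reached 0.88 and passed on the unadjusted p of limma without F1-Control Pd21 replicate 1 and dropped to 0.22 without F1-Control Pd21 replicate 3. The summed ciliated and oviduct markers of F1-Control Pd21 were at 403, 86.3 and 462 FPKM where Bmp15 was at 109, 97.4 and 42.8 FPKM. Replicate 3 had the highest marker sum and the lowest Bmp15 level of the group. Replicate 1, with 403 FPKM of the markers, had the highest Bmp15 level, and replicate 2, with the lowest marker sum, had the middle one. The part of such tissue in the Pd21 values was not tested.

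**Figure D2:**
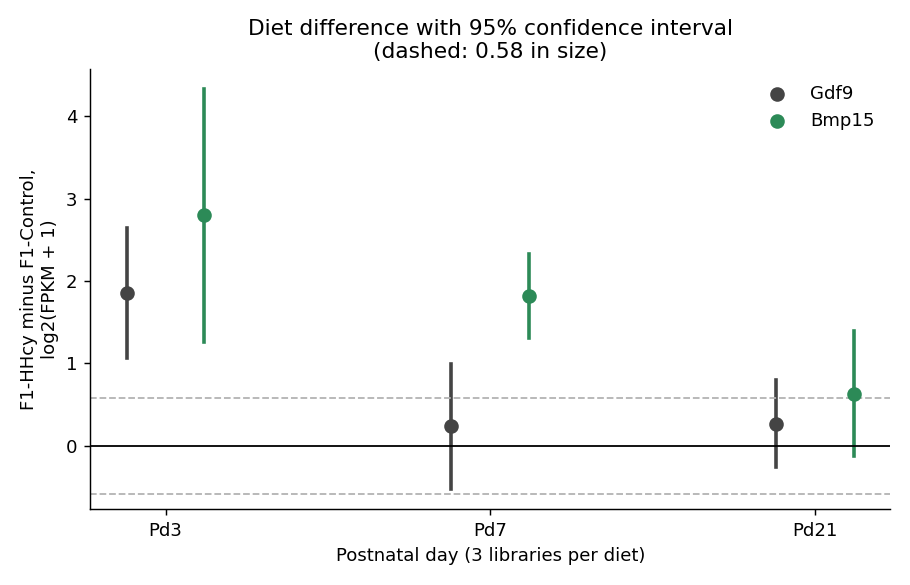
Difference between the diets (F1-HHcy minus F1-Control, on the log2(FPKM + 1) scale) of Gdf9 and Bmp15 at each day, with 95% confidence intervals from limma and 3 libraries per diet. The interval lies above 0 for both genes at Pd3 and for Bmp15 at Pd7, and includes 0 for Gdf9 at Pd7 and for both genes at Pd21.

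The diet effects of different days were then set against each other in a single model of all 18 libraries. The effect on Gdf9 was smaller at Pd7 than at Pd3 by 1.62 (difference -1.62, SE 0.50, adjusted p = 0.184, limma), which passed on the unadjusted p, and 7.33% of 14607 genes passed in this direction. That of Bmp15 differed by -0.97 between these days (SE 0.73, adjusted p = 0.542, limma, 95% confidence interval -2.52 to 0.57), which did not. This last value rested on F1-HHcy Pd3 replicate 3, without which it was -1.82 and passed (adjusted p = 0.0662, limma). Between Pd21 and Pd3 the effect differed by -1.58 for Gdf9 (adjusted p = 0.0974, limma) and by -2.16 for Bmp15 (adjusted p = 0.121), and both passed on the unadjusted p, in the direction in which 10.4% of genes passed. These comparisons share the Pd3 libraries, and Pd21 is also the other batch.

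With age, from Pd3 to Pd7, both ligands rose in F1-Control. Gdf9 was higher at Pd7 by 2.20 on the log2(FPKM + 1) scale (SE 0.32, adjusted p = 0.00363, limma) and Bmp15 by 3.10 (SE 0.26, adjusted p = 0.000227), among 7.00% of 13336 tested genes called in this direction, and 14.5% of the genes had an adjusted p under 0.05. Bmp15 met the filter there through Pd7, and with no filter it was also at 3.10 (adjusted p = 0.0117, limma). The days did not overlap for either gene, as for 15.6% of the genes. In F1-HHcy, Bmp15 was higher at Pd7 by 2.13 (SE 0.66, adjusted p = 0.136, limma) and passed on the unadjusted p, with 5.73% of 13257 genes. Its days did not overlap, as for 14.6% of the genes. That call was lost without F1-HHcy Pd7 replicate 3 (2.01), and without F1-HHcy Pd3 replicate 3 the value was 1.29. Gdf9 differed by 0.59 (SE 0.37, 95% confidence interval -0.28 to 1.46) and did not pass. Without F1-HHcy Pd3 replicate 1 this Gdf9 difference was 0.87 and passed, and without F1-HHcy Pd3 replicate 3 it was 0.20 and did not. The age comparisons use the same libraries as the diet comparisons above.

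The balance between the ligands shifted toward Bmp15. In F1-Control Pd3 the Bmp15 level was 3.48, 2.02 and 3.45% of the Gdf9 level of the same library, and in F1-HHcy Pd3 it was 15.8, 11.9 and 4.40%. At Pd7 the share was 12.9, 7.60 and 8.95% in F1-Control and 32.3, 33.3 and 24.8% in F1-HHcy. At Pd21 it was 22.6, 24.7 and 14.1% in F1-Control and 24.8, 26.6 and 25.8% in F1-HHcy. The F1-HHcy values lay above all F1-Control values on each day, though at Pd21 by a small margin, and 2 of the 3 F1-HHcy Pd7 libraries lay above every Pd21 library.

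The ratio of Bmp15 to Gdf9, with 0.1 FPKM added to each, was 3.01-fold higher in F1-HHcy at Pd3, 3.11-fold at Pd7 and 1.29-fold at Pd21. The exact 2-sided permutation p was 0.1 on each of the 3 days, which is the smallest that 3 libraries against 3 can give, so a p under 0.05 was out of reach. A pseudocount of 1 FPKM lowered the log2 difference at Pd3 from 1.59 to 0.94, since the Bmp15 values of F1-Control are close to 1 FPKM there.

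**Figure D3:**
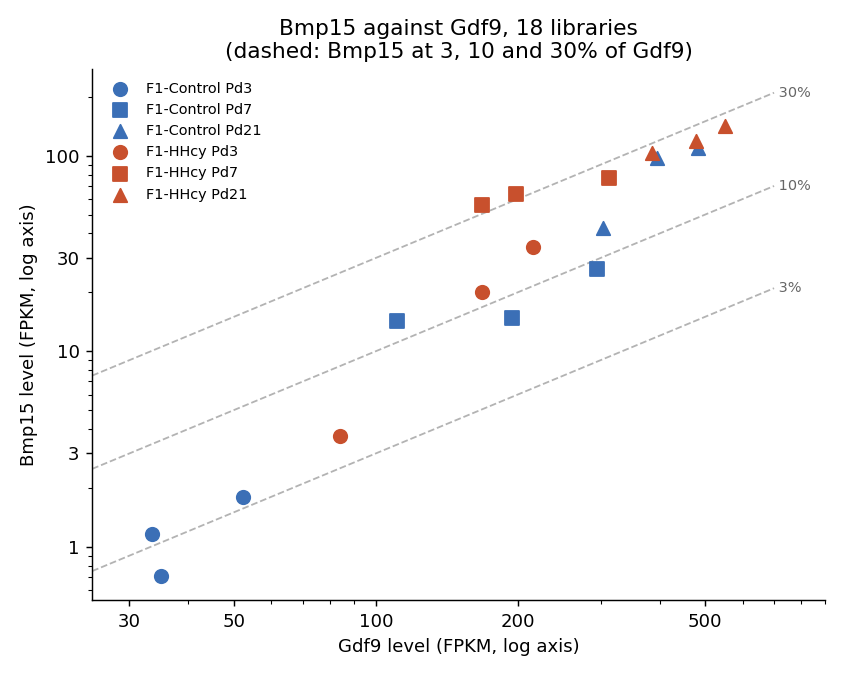
Bmp15 against Gdf9 in the 18 libraries, in FPKM on log axes, with colour for diet and marker shape for day. Dashed lines mark Bmp15 at 3, 10 and 30% of Gdf9, and the F1-HHcy Pd7 squares lie near the 30% line while the F1-Control Pd7 squares lie near the 10% line.

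The ligands were also set against Ddx4, the germ cell helicase also called MVH, and Dazl, an RNA-binding protein of germ cells, because both mark oocytes of any stage. At Pd3 and Pd7 the means of both markers were lower in F1-HHcy. At Pd3 Ddx4 was at 14.3 ± 3.45 FPKM in F1-HHcy and 21.1 ± 0.664 in F1-Control (log2 difference -0.56, adjusted p = 0.122, limma), which did not pass. Dazl was at 23.7 ± 11.9 against 51.7 ± 10.7 FPKM and fell by 1.18 on the log2 scale (adjusted p = 0.0926), which passed on the unadjusted p. At Pd7 both passed, Ddx4 with -1.16 (adjusted p = 0.00382) and Dazl with -0.58 (adjusted p = 0.0638). At Pd21 neither did, with Ddx4 at 5.18 ± 1.19 against 5.47 ± 2.07 FPKM (-0.03) and Dazl at 22.2 ± 4.02 against 14.9 ± 6.14 FPKM (0.60, adjusted p = 0.821, limma).

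Relative to the mean log2 level of these markers, the F1-HHcy level of Gdf9 was 6.88 times that of F1-Control at Pd3, 2.26 times at Pd7 and 0.974 times at Pd21, and that of Bmp15 was 20.7, 7.02 and 1.26 times. The groups did not overlap for either gene at Pd3 or for Bmp15 at Pd7 (exact permutation p = 0.1 for each, the smallest possible), whereas they overlapped for Gdf9 at Pd7 (exact permutation p = 0.3) and for both genes at Pd21 (0.9 for Gdf9 and 0.7 for Bmp15). At Pd3 and Pd7 these folds are larger than the folds of the ligand levels themselves, since the markers were lower in F1-HHcy.

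**Figure D4:**
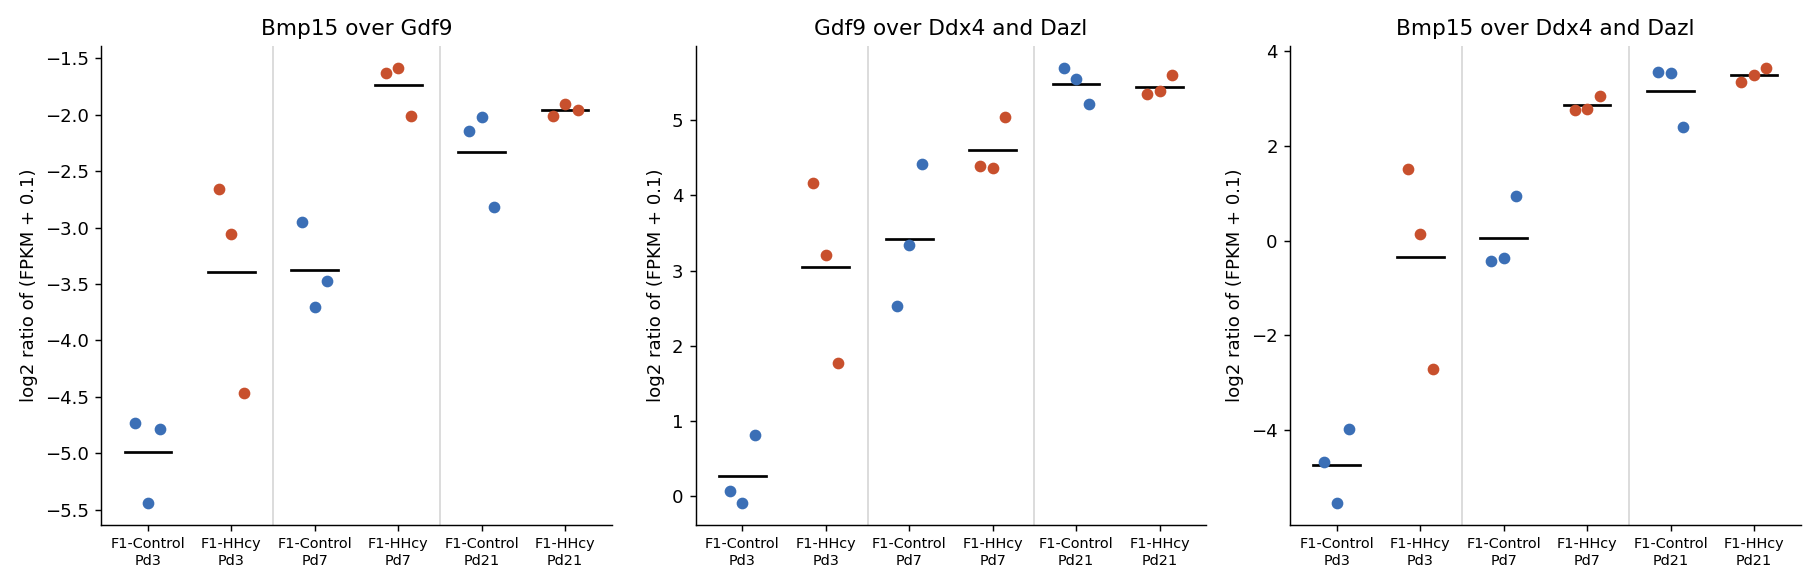
Log2 ratio of Bmp15 to Gdf9 (left), of Gdf9 to the germ cell markers Ddx4 and Dazl (middle) and of Bmp15 to these markers (right) in each library, with 0.1 FPKM added to each level. Points are libraries and bars are means of 3, and in the right panel the 3 F1-HHcy Pd7 libraries lie between 2.76 and 3.04 while the F1-Control Pd7 libraries lie between -0.43 and 0.94.

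The 7 transcription factors measured here (Figla, Nobox, Lhx8, Sohlh1, Sohlh2, Taf4b and Tbpl2) act in the early oocyte, and FIGLA, NOBOX, LHX8 and SOHLH1 are needed for follicle formation or early growth. At Pd3, 3 of 7 fell and none rose in F1-HHcy, beside 4.74% of all tested genes called lower, with a median difference of -0.71 and no adjusted p of the 7 under 0.05. Sohlh1 fell from 92.9 ± 3.36 to 43.1 ± 24.6 FPKM (log2 difference -1.27, adjusted p = 0.122, limma) and Lhx8 from 36.7 ± 2.95 to 17.4 ± 7.27 FPKM (-1.11, adjusted p = 0.0711), while Nobox, the most abundant at 74.0 ± 38.9 against 78.6 ± 6.60 FPKM, did not pass. At Pd7, 6 of 7 fell and Taf4b rose, beside 7.35% of all genes called lower and 9.06% higher, with a median of -1.43 against -0.0015 over all tested genes. Sohlh1 went from 48.9 ± 19.2 to 6.49 ± 0.858 FPKM (-2.66, adjusted p = 0.00121) and Nobox from 73.7 ± 18.7 to 32.4 ± 10.9 FPKM (-1.18, adjusted p = 0.0153). Sohlh2 was at 1.03 ± 0.139 FPKM in F1-HHcy against 7.00 ± 2.11 in F1-Control, a difference of -1.94 that is given without its test because the gene met the filter through F1-Control alone. The count of 6 and the median of the list at Pd7 still include Sohlh2, so they rest in part on that filter. At Pd21 none of the 6 tested passed.

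Of the 8 genes of the growing oocyte, which code for zona pellucida proteins and factors stored for the embryo, most were called higher at Pd3 and most lower at Pd7. At Pd3, 5 of 8 rose and none fell, with a median of 0.98, beside 5.0% of all genes called higher. Zar1, a maternal factor, rose from 10.1 ± 3.57 to 68.7 ± 24.5 FPKM (2.62, adjusted p = 0.0175, limma) and the zona gene Zp3 from 170.0 ± 43.6 to 377 ± 93.2 FPKM (1.15, adjusted p = 0.0486). At Pd7, 5 of 8 fell and Oosp1 alone rose, with a median of -0.94, beside 7.35% of all genes called lower. Zp2 fell from 692 ± 186 to 304 ± 54.4 FPKM (-1.17, adjusted p = 0.0142) and Padi6 from 736 ± 193 to 303 ± 147 FPKM (-1.34, adjusted p = 0.0284), and Oosp1, a secreted oocyte protein, rose from 95.5 ± 10.3 to 179.8 ± 30.2 FPKM (0.90, adjusted p = 0.0119). At Pd21 none of the 8 passed.

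The other ligands of the oocyte were much lower than Gdf9. Rspo2, an enhancer of WNT signaling, was at 3.86 ± 1.361 FPKM in F1-HHcy Pd3 and 1.53 ± 0.0938 in F1-Control Pd3 and rose by 0.90 (adjusted p = 0.0714, limma). Over all tested genes 5.0% were called higher on that day. Bmp6 was at 12.7 ± 1.89 against 9.21 ± 1.76 FPKM on that day (0.43) and did not pass, and Fgf8, at 0.856 ± 0.575 against 0.0833 ± 0.0177 FPKM, was too low to be tested at Pd3. None of the 3 passed at Pd7 or Pd21.

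Among the 9 receptors, 1 rose at Pd3 and 2 at Pd7, beside 5.0% and 9.06% of all tested genes called higher on these days. None fell, and none passed at Pd21. Bmpr1b, the type I receptor of BMP15, rose at Pd7 from 4.37 ± 0.872 to 9.99 ± 2.15 FPKM (1.03, adjusted p = 0.00984, limma). Tgfbr3, which encodes the co-receptor betaglycan, rose at Pd3 from 4.93 ± 0.130 to 9.66 ± 0.970 FPKM (0.84, adjusted p = 0.0211) and at Pd7 from 8.68 ± 2.53 to 17.3 ± 0.516 FPKM (0.95, adjusted p = 0.0160). Bmpr2, which both ligands use, was at 18.5 ± 0.207 FPKM in F1-HHcy Pd3 against 14.2 ± 0.305, a difference of 0.35 that lies under the limit of 0.58. Bmpr1a, the most abundant receptor, was at 35.0 ± 1.19 against 34.1 ± 1.02 FPKM at Pd3 and did not pass on any day. The medians of the receptors were 0.04 at Pd3, 0.37 at Pd7 and 0.12 at Pd21.

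Of the 7 tested SMADs, which carry the signal to the nucleus, Smad3 alone passed, and only at Pd3. It fell from 75.9 ± 5.30 to 43.2 ± 12.0 FPKM (-0.83, adjusted p = 0.0603, limma), and at Pd7 it stood at 31.6 ± 5.39 against 33.8 ± 4.29 FPKM. This call at Pd3 stands beside 4.74% of all tested genes called lower on that day. Smad1, Smad5 and the inhibitory Smad6 did not pass on any day. The SMAD medians were 0.10, 0.07 and 0.01 from Pd3 to Pd21.

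Among the proteases that cut such ligands from their precursors and the proteins that trap them, 2 of 7 tested genes rose at Pd3, and at Pd7 2 rose and 1 fell. Of all tested genes 5.0% were called higher at Pd3, and 9.06% higher and 7.35% lower at Pd7. The protease gene Pcsk5 rose at Pd3 from 2.49 ± 0.265 to 5.43 ± 1.67 FPKM (0.86, adjusted p = 0.0600, limma). Pcsk6, the most abundant protease of the list, fell at Pd7 from 94.6 ± 5.48 to 57.5 ± 3.30 FPKM (-0.71, adjusted p = 0.0113).

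Genes known to respond to these ligands or to BMP signals were read next. Of the 4 Id genes, which are targets of SMAD1 and SMAD5, Id3 rose at Pd3 from 55.3 ± 8.40 to 107.7 ± 26.5 FPKM (0.93, adjusted p = 0.0510, limma) and at Pd7 from 86.7 ± 3.02 to 139 ± 23.7 FPKM (0.66, adjusted p = 0.0295). Id4 fell at Pd7 (-0.64, adjusted p = 0.0698) and at Pd21, where it went from 6.20 ± 2.66 to 1.83 ± 0.354 FPKM (-1.29, adjusted p = 0.0423). Over all tested genes, 5.0% were called higher at Pd3 and 9.06% at Pd7, and 7.35% were called lower at Pd7 and 5.06% at Pd21. The cumulus matrix genes were low at Pd3, when none of 5 passed the filter, and at Pd7 Ptger2, a prostaglandin receptor gene, rose from 1.73 ± 0.589 to 3.84 ± 0.711 FPKM (0.83, adjusted p = 0.0249). Ptx3 was at 3.35 ± 0.637 FPKM in F1-HHcy Pd7 and 0.718 ± 0.247 in F1-Control Pd7, a difference of 1.34 given without its test because no control library reached the filter of 1 FPKM.

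Of the 7 cumulus genes of metabolism, Slc38a3, an amino acid transporter that oocytes induce in granulosa cells, was at 12.1 ± 5.54 FPKM in F1-HHcy Pd7 and 0.931 ± 1.17 in F1-Control Pd7. This difference of 2.83 is likewise given without its test, since 1 control library reached the filter. The sterol gene Sqle fell on that day (-0.59, adjusted p = 0.0639, limma), and at Pd3 the glycolysis gene Pfkp rose from 1.27 ± 0.138 to 2.88 ± 0.0874 FPKM (0.77, adjusted p = 0.0303). These calls stand beside 7.35% of all tested genes called lower at Pd7 and 5.0% called higher at Pd3. The medians of this list were 0.22, -0.12 and -0.18 from Pd3 to Pd21. No gene of the list passed at Pd21.

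Several markers of the granulosa cells, on which the ligands act, were higher in F1-HHcy at Pd3 and Pd7. At Pd3, 4 of 6 tested markers rose and the median was 1.19, and at Pd7, 4 of 7 rose with a median of 1.16, beside 5.0% and 9.06% of all genes. At Pd3 Wt1, at 119 ± 30.4 against 152 ± 18.6 FPKM (-0.36), and Foxl2, at 60.0 ± 5.27 against 55.7 ± 3.91 FPKM (0.10), did not pass, and at Pd21 none of 7 did (median 0.10). Inha, the inhibin alpha subunit, rose at Pd3 from 34.6 ± 0.464 to 132 ± 69.6 FPKM (1.78, adjusted p = 0.0338, limma) and at Pd7 from 137 ± 91.9 to 326 ± 106 FPKM (1.40, adjusted p = 0.0497). Amh, a hormone of growing follicles, was at 99.7, 35.2 and 9.72 FPKM in the F1-HHcy Pd3 libraries, in the same order as Gdf9 and Bmp15 there, and at 1.65, 2.08 and 2.51 FPKM in F1-Control Pd3. Of the steroidogenic genes at Pd7, Hsd3b1 rose from 300.7 ± 109.7 to 947 ± 57.2 FPKM (1.71, adjusted p = 0.00558) and Star from 7.18 ± 1.39 to 13.9 ± 3.52 FPKM (0.84, adjusted p = 0.0314). Cyp17a1, at 136 ± 62.2 against 3.49 ± 4.80 FPKM (a difference of 5.34), met the filter through F1-HHcy alone, as did Cyp11a1 and Lhcgr. The summed granulosa markers were at 324 to 558 FPKM in F1-HHcy Pd3 and 252 to 286 FPKM in F1-Control Pd3, and the part of a different cell makeup in the ligand values was not tested. Of the other marker lists, all 5 red-cell genes fell at Pd3 and at Pd7, and 1 of 4 tested immune genes, S100a8, fell on both of these days. At Pd7 S100a8 met the filter through F1-Control alone. All 6 ciliated and oviduct genes were called lower at Pd21, although all of them except Rsph1 met the filter through F1-Control alone. Over all tested genes, 4.74% were called lower at Pd3, 7.35% at Pd7 and 5.06% at Pd21. At Pd7 Ovgp1, an oviduct gene, was at 12.1, 1.91 and 1.28 FPKM in F1-HHcy against 0.899, 0.795 and 1.03 in F1-Control. This difference of 1.22 is given without its test because the gene met the filter through F1-HHcy alone. The part of such tissue in the Pd7 values was not tested.

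**Figure D5:**
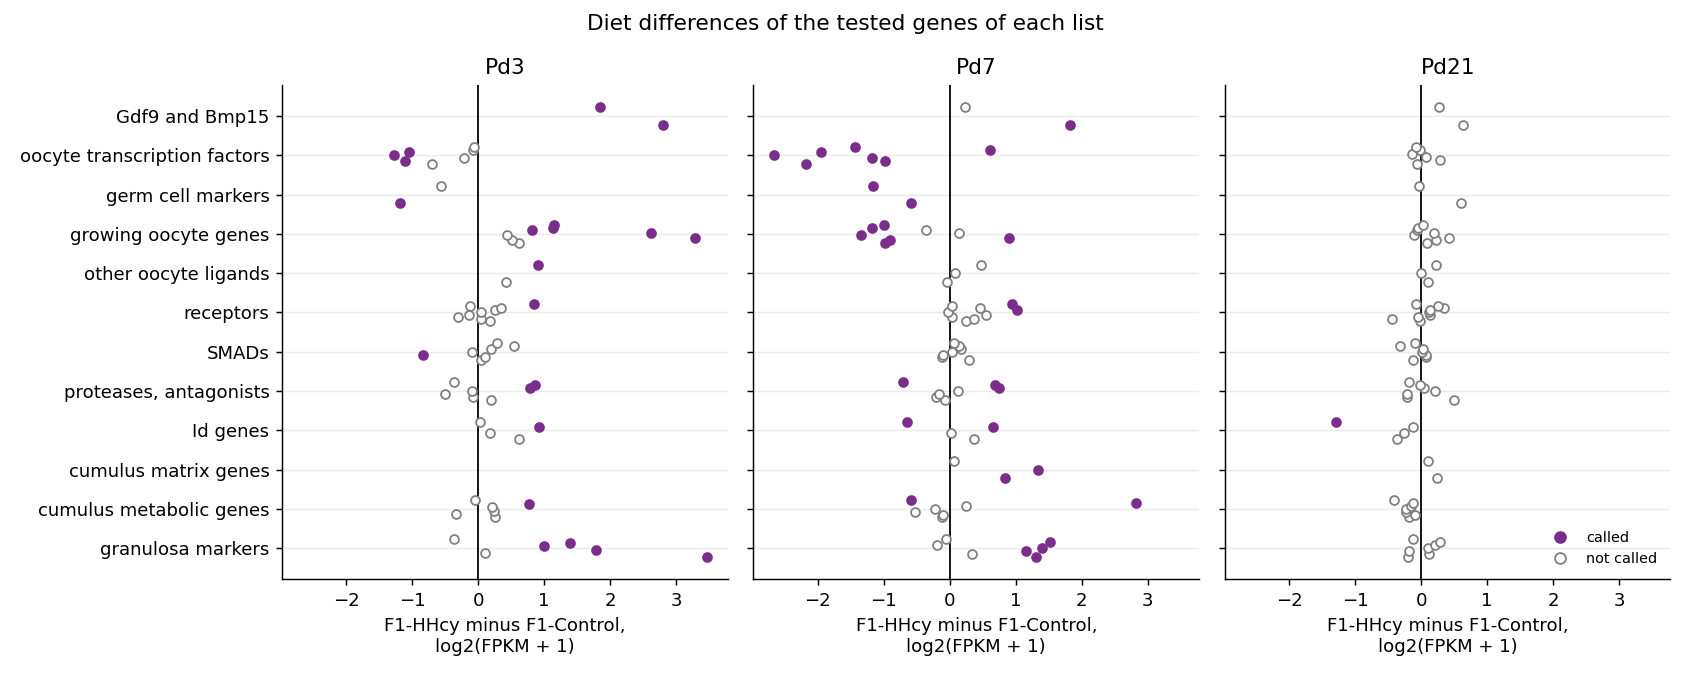
Difference between the diets (F1-HHcy minus F1-Control, log2(FPKM + 1)) of each tested gene at Pd3, Pd7 and Pd21, by list. Each point is a gene, filled where it passed the criterion and open where it did not, and at Pd7 6 of 7 oocyte transcription factors lie to the left of 0 and filled while Bmp15 lies to the right at 1.82. Sohlh2, which is among these 6, met the filter at Pd7 through F1-Control alone.

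The genes whose level was most like that of the pair over the 18 libraries were sought among 14607 genes. Likeness was Pearson's r of log2(FPKM + 1) with the mean of the standardized Gdf9 and Bmp15 values, which groups and days shape in large part. Mos, the kinase that holds the egg in metaphase, came first (r = 0.997), followed by Gm11545, Gm1965, Klf17, Kpna7, Slc45a3, Cpa1, Fbxw19, Zar1l and Nlrp9a, the tenth, with r = 0.990. Mos went from 3.63 FPKM in F1-Control Pd3 to 18.5 in F1-HHcy Pd3, 20.7 in F1-Control Pd7 and 30.1 in F1-HHcy Pd7, and on to 43.5 and 52.9 FPKM at Pd21. Gdf9 and Bmp15 had r = 0.96 with each other.

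With the mean of each group subtracted, so that the libraries of a group alone are compared, Gdf9 and Bmp15 still had r = 0.83 over the 18 libraries, and the 5 genes most like the pair were Mos (r = 0.984), Slc45a3, Zfp764, Klf17 and Tubb3 (r = 0.966). Libraries with more of the ligands within a group also had more Amh (r = 0.86 with Gdf9 and 0.83 with Bmp15). Ddx4 went the other way, weakly with Gdf9 (r = -0.32) and more so with Bmp15 (r = -0.55). Dazl also went the other way, to a like degree with Gdf9 (r = -0.44) and Bmp15 (r = -0.45). Uqcrq, the gene that overlaps Gdf9, had r = -0.0035 with Gdf9 on this measure. These correlations share library and depth and are given as a description. They lean on F1-HHcy Pd3 replicate 3, whose Bmp15 lay far below that of its group (3.70 against 34.0 and 20.1 FPKM), and were not repeated without it.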

How the data were processed

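Whole-ovary poly-A RNA was sequenced by the authors from stranded libraries, 3 for each of 6 groups. The submitters' processing notes name STAR 2.7.9a, featureCounts 2.0.1 and the build GRCm38. The authors deposited 1 linear value per gene and library with no unit named, and these deposited values, scaled by the authors for length and depth, were taken to be FPKM because multiplying by 1 length for each gene and 1 depth for each library gave, for 27294 of 27294 genes with a value above 0 in at least 3 libraries, whole fragment numbers to within 0.02. Fragments on genes per library numbered 33630304 to 39398922. No pair of libraries held identical values. All 18 columns were mapped by their labels and none was left out.

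The log2(FPKM + 1) values were fitted by limma 3.58.1 (R 4.3.3, variance trend) for genes at 1 FPKM or more in at least 3 of the libraries fitted. Called means an unadjusted p under 0.05 and, in size, a log2 difference above 0.58, and the Benjamini-Hochberg adjustment ran over every gene tested. Ratios were tested by exact permutation with 0.1 FPKM added. The fit was tested on simulated data. Members, lists and the naming rule were all picked with earlier results of these data known. The rule names, of each list, the most abundant tested gene and the 2 with the smallest p in a diet comparison, lists of up to 3 genes in full, and the 10 genes (5 within groups) most like the pair. Some of these are counted rather than named, and Figla, Taf4b, Tbpl2, Foxl2 and genes given for their filter or as counterexamples were named outside the rule after their values were seen. A gene of the protease and antagonist list is counted there and not reported here by name. Positions, neighbours and the promoter are from RefSeq (GRCm38.p6) and exons from GENCODE M21, and the promoter table was matched for Bmp15.

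Equal replicate numbers did not mark shared litters in the labels. For Pd7 against Pd3 in F1-Control, libraries of the same number deviated from their group means together (r = 0.13, 0.26 and 0.29). These correlations come from the same data, so they cannot show that the libraries were paired. The replicate number was therefore used as a block only as an alternative. The values printed are from the fit without the block. With it Gdf9 was at 2.20 (adjusted p = 5.80e-06, limma) and Bmp15 at 3.10 (adjusted p = 4.86e-07), with 943 genes called higher against 934 without it. The smaller p-values of the block fit rest on a pairing that the labels do not give. In the other comparisons at least 1 of the 3 correlations was below 0.1. Alternatives were a pseudocount of 0.1, no filter, the replicate block, limma-voom on the recovered fragments, median-ratio scaling, removal of mitochondrially encoded and hemoglobin genes, 1 model of all 18 libraries, and each library left out in turn.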

Additional observations from a re-analysis of the deposited data

Results flagged for a closer look

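The diet effect on Gdf9 was smaller at Pd7 than at Pd3 by a log2 difference of -1.62 (adjusted p = 0.184, limma interaction term, past 0.05 unadjusted). In the same values, 3 of 3 F1-HHcy libraries lay above all controls at Pd3, as for 11.8% of the tested genes, and 1 of 3 at Pd7. The effect on Gdf9 was also smaller at Pd21 than at Pd3, by -1.58 (adjusted p = 0.0974, limma). For Bmp15 the effect at Pd21 was below that at Pd3 by -2.16 (adjusted p = 0.121, limma), with 2 of 3 F1-HHcy libraries above all controls at Pd21. None of these passes the adjustment over 14607 genes, and where Pd21 is involved age and batch cannot be told apart.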

How the results depend on the processing

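Of 274 repeats of the 16 limma results under an alternative, 260 kept the direction and the side of the threshold. Of 84 repeats of the 9 ratio results, whose permutation p cannot go below 0.05, 80 kept their direction and 4 reversed. Every change but 1 came from leaving out a library. The exception is Gdf9 relative to Ddx4 alone at Pd21, which was 0.29 against -0.04 with both markers. With single libraries left out, the diet effect at Pd3 ran from 1.57 to 2.24 for Gdf9 and 2.19 to 3.64 for Bmp15, at Pd7 from -0.13 to 0.57 and 1.67 to 2.09, and at Pd21 from 0.09 to 0.43 and 0.22 to 0.88. Pd7 against Pd3 ran from 1.87 to 2.57 for Gdf9 and 2.83 to 3.29 for Bmp15 in F1-Control, and from 0.20 to 0.87 and 1.29 to 2.74 in F1-HHcy. The difference of diet effects ran, for Pd7 minus Pd3, from -2.01 to -1.28 for Gdf9 and -1.82 to -0.37 for Bmp15, for Pd21 minus Pd3 from -1.97 to -1.30 and -3.01 to -1.56, and for Pd21 minus Pd7 from -0.30 to 0.40 and -1.60 to -0.94. The log2 ratio of Bmp15 to Gdf9 ran from 1.22 to 2.12, 1.47 to 1.85 and 0.12 to 0.52 at Pd3, Pd7 and Pd21. Relative to the germ cell markers, Gdf9 ran from 2.22 to 3.42, 0.72 to 1.67 and -0.17 to 0.070, and Bmp15 from 3.44 to 5.55, 2.57 to 3.26 and -0.052 to 0.53. Each left-out fit uses fewer libraries, and the cause was not tested further.

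With the replicate block no call on either gene changed, and the differences stayed at 1.85 and 2.79 (Pd3), 0.24 and 1.82 (Pd7) and 0.27 and 0.63 (Pd21) for Gdf9 and Bmp15. The adjusted p of Gdf9 at Pd3 went from 0.0388 to 0.131 with the block (limma). With 3 pairs the smallest sign-flip p of a ratio is 0.25. Other scalings moved the diet differences little, whereas limma-voom and a pseudocount of 0.1 raised Bmp15 at Pd3 to 3.59 and 3.46, since its control values lie near 1 FPKM. With 3 libraries per group, effects smaller than the intervals given could not be resolved.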

Other observations

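In F1-HHcy Pd3 the 3 libraries kept the same order for Gdf9 (215, 168 and 83.9 FPKM), Bmp15 (34.0, 20.1 and 3.70 FPKM) and Oosp1 (125, 89.7 and 11.03 FPKM), and the reverse order for Figla (20.8, 43.7 and 60.7 FPKM), Sohlh1 (18.7, 42.7 and 67.9 FPKM) and Dazl (13.7, 20.5 and 36.8 FPKM). These genes were picked after their values were seen, and 3 libraries allow no test of an order. In F1-HHcy Pd7 the Bmp15 level was 32.3, 33.3 and 24.8% of Gdf9, against 22.6, 24.7 and 14.1% in F1-Control Pd21, while Zp2 was at 301, 250.4 and 359 FPKM in the former and 472, 226 and 462 FPKM in the latter. These groups differ in diet, age and batch label at once, which cannot be told apart here.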
